A study of Homo sapiens with 42 samples.

Results

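The genes described here are CAD, UMPS, PPAT, GART, IMPDH2, TYMS, RRM1, RRM2 and ODC1, which encode enzymes that make nucleotides and polyamines. They were taken by name, not by their values, as the rows of the count tables whose Ensembl identifier maps to these symbols. All 9 were found among 58243 gene identifiers, and all 9 passed the filter on low counts in both RNA fractions. RNA was sequenced from K562, an established human chronic myeloid leukaemia line that carries the BCR-ABL1 fusion kinase. Poly(A) mRNA came from 27 libraries in 9 groups and nuclear RNA from 15 libraries in 5 groups, with 3 biological replicates in each group. Cells were untreated (CTRL) or received 1 μM imatinib, an inhibitor of BCR-ABL1, for 1, 6 or 18 h (IM 1h, IM 6h, IM 18h). Other cultures received 5 μM JTE-607, a compound directed at the 3′-end nuclease CPSF73, for 1, 6 or 18 h (JTE 1h, JTE 6h, JTE 18h), or 110 mM KCl, a hyperosmotic shock, for 1 or 3 h (KCl 1h, KCl 3h). The nuclear groups were CTRL, IM 1h, IM 18h, JTE 1h and KCl 1h. All groups are the same cell line, and a single CTRL group per fraction, labelled untreated, served every time point.

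Cells build purines and pyrimidines from small precursors by de novo synthesis, or recover them from free bases and nucleosides by salvage. CAD carries out the first steps of pyrimidine synthesis and UMPS the last steps to UMP, while PPAT commits material to the purine ring, GART catalyses several of the following steps and IMPDH2 opens the branch to guanine nucleotides. RRM1 and RRM2 are the large and small subunits of ribonucleotide reductase, which turns ribonucleotides into deoxynucleotides, and TYMS makes thymidylate. ODC1 makes putrescine, the first polyamine, and its mRNA is a textbook target of MYC. Dividing cells depend on these routes for DNA, RNA and protein synthesis.

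Promoter stretches are shown so that matches to 2 motifs can be compared, CACGTG between ODC1, SRM and PPAT and CCAAT between the reductase subunits RRM2 and RRM1. RefSeq windows on GRCh38.p14 were matched for 8 of the 9 genes, and the 250 bases before each start were searched on both strands. The palindrome CACGTG, the core E-box bound by MYC and related factors, was present for 2 of them, ODC1 and PPAT, against 6.32% of 34943 windows of the same length. Of 4 other genes searched in the same way, all described further on, it was present for SRM, the spermidine synthase gene. AMD1, PAICS and IMPDH1 had no CACGTG match. CCAAT (or ATTGG on this strand), the core of the NF-Y site, was present for 4 of them, CAD, GART, RRM1 and RRM2, against 32.0% of windows. A gene counted as matched if any of its windows held the motif, with 3 windows for GART and 2 each for RRM2 and ODC1. The percentages are of single windows, so the counts of genes cannot be set directly against them. Neither motif overlaps the other in these matches, and a match is a run of letters, not evidence of binding. In the stretches below, written 5′ to 3′ on the gene's strand, capitals mark the motif.
ODC1, chr2:10448024-10448053, minus strand, motif 29 bases before a RefSeq start and in an ODC1 intron of GENCODE 44: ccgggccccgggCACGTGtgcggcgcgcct
PPAT, chr4:56435780-56435809, minus strand, motif 182 bases before the start and in an exon of the head-to-head neighbour PAICS: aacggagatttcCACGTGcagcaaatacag
SRM, chr1:11060200-11060229, minus strand, motif 199 bases before the start: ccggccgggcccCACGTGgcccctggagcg
RRM2, chr2:10122604-10122632, plus strand, motif 123 bases before a RefSeq start and in an exon of a longer RRM2 transcript: ggcaaggcgcagCCAATgggaagggtcgg
RRM2, chr2:10122634-10122662, plus strand, 93 bases before the same start, in the same exon: ggcatggcacagCCAATgggaagggccgg
RRM2, chr2:10122661-10122689, plus strand, 66 bases before the same start, in the same exon: ggggcaccaaagCCAATgggaagggccgg
RRM1, chr11:4094645-4094673, plus strand, motif 28 bases before the start: gcatgtccatatCCAATggggcccatggg

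The depth was high for every gene described. Library totals ran from 16439848 to 62953314 counts in mRNA, with the values above 22505595 confined to KCl 1h, and from 16175394 to 25103205 counts in nuclear RNA. The lowest count of any of the 9 genes in a library was 504 in mRNA and 517 in nuclear RNA. All 10 K562 markers, among them GATA1, TAL1, KLF1, BCR and ABL1, had a CTRL mRNA mean of at least 1 CPM (counts scaled to a common library size), while 10 of 15 markers of other cell types had a mean under 1. EPCAM, an epithelial marker, was the highest of those, between 75.0 and 107.9 CPM in mRNA. MALAT1 and NEAT1, nuclear long non-coding RNAs, summed to 1919 to 3723 CPM in mRNA and 12041 to 19057 CPM in nuclear RNA, without overlap. The paper describes poly(A) selection for the mRNA libraries and ribosomal RNA depletion for the nuclear ones. Library type and cell compartment therefore cannot be told apart in this difference.

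All 9 are protein-coding genes, counted over all their exons, and positions are those of the files on hg38. CAD (ENSG00000084774) lies on the plus strand at chr2:27217390-27243943, RRM2 (ENSG00000171848) on the plus strand at chr2:10120698-10131419 and ODC1 (ENSG00000115758) on the minus strand at chr2:10439968-10448504. UMPS (ENSG00000114491) lies on the plus strand at chr3:124730366-124749273 and IMPDH2 (ENSG00000178035) on the minus strand at chr3:49024325-49029408. PPAT (ENSG00000128059) lies on the minus strand at chr4:56393362-56435615 and GART (ENSG00000159131) on the minus strand at chr21:33503931-33543491. RRM1 (ENSG00000167325) lies on the plus strand at chr11:4094707-4138876 and TYMS (ENSG00000176890) on the plus strand at chr18:657604-673578.

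Some exon bases lie under exons of neighbouring genes. The counting did not use strand, and its stated settings do not include the option that counts a read pair for more than 1 gene, so pairs over exons of both genes would be left out of both counts. For TYMS, 26.2% of the exon bases lie under exons of the opposite-strand genes ENOSF1 and TYMSOS. For RRM2, 20.2% lie under exons of the same-strand gene ENSG00000284681, and for GART 3.55% under those of the opposite-strand gene SON. The first bases of PPAT and PAICS lie 126 bases apart, head to head. RRM1, with a span of 44170 bases, PPAT with 42254 and GART with 39561 are long genes, and the alignment did not allow long introns.

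In untreated cells the level per length, in CPM per kilobase of exon, was highest for ODC1 (262.6 ± 34.7, SD, n = 3) and lowest for UMPS (6.59 ± 0.849). IMPDH2 followed ODC1 at 99.8 ± 6.24. RRM1 (72.7 ± 5.41), GART (69.1 ± 11.2) and TYMS (69.0 ± 3.13) lay within their spread of each other, and so did CAD (23.7 ± 5.85) and PPAT (23.2 ± 0.848), below RRM2 at 36.3 ± 1.26. CAD stood out in the ratio of nuclear to mRNA CPM, which was 2.59, with 425, 563 and 564 CPM in nuclear CTRL and 247, 204 and 149 CPM in mRNA CTRL. The ratio of the other 8 genes lay between 0.725 for RRM1 and 1.16 for IMPDH2. CPM is relative to each fraction's own total, so the ratio orders the genes and is not a share of molecules. The fractions also differ in library type, which the ratio does not separate from cell compartment.

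**Figure D1:**
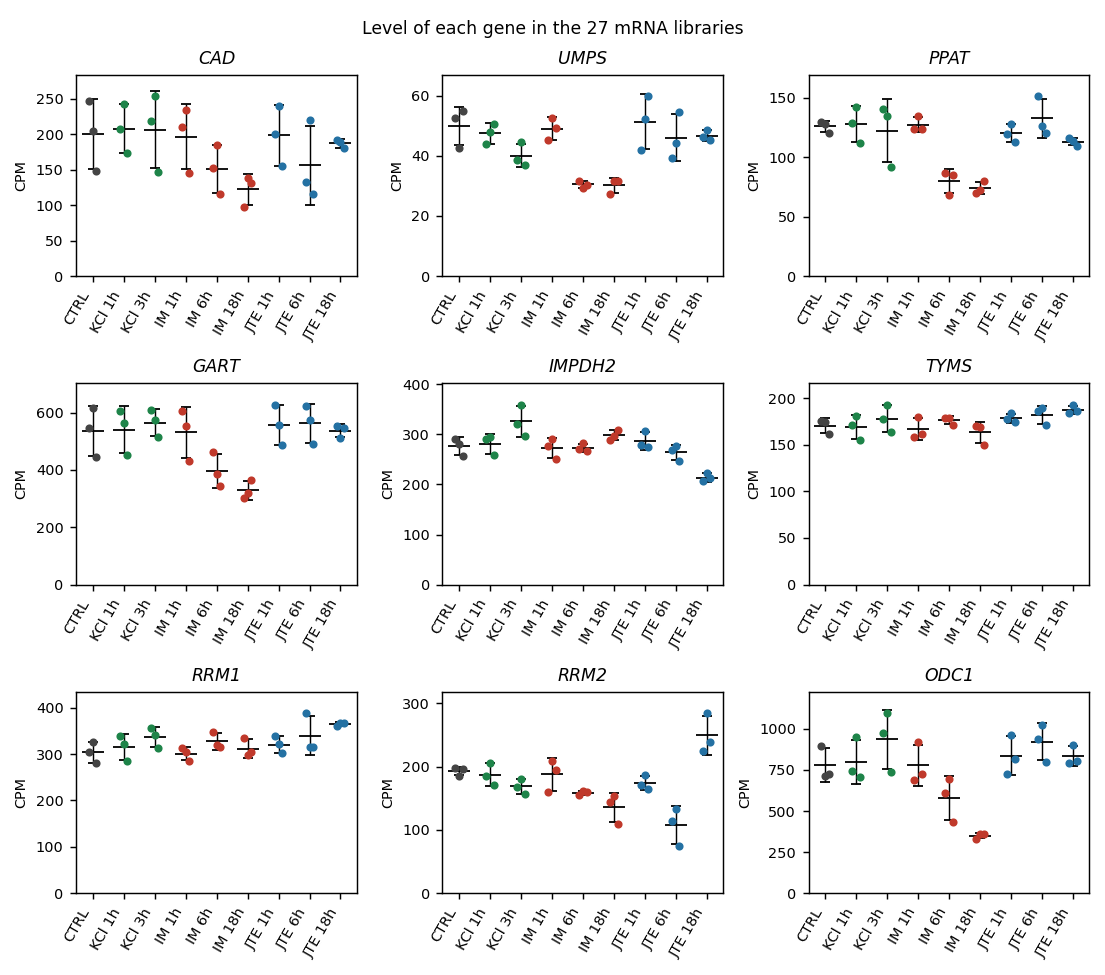
Level in CPM (y axis, from 0) of each of the 9 genes in the 27 mRNA libraries, by group (x axis). Points are libraries, the horizontal tick is the mean and the bars are 1 SD (n = 3). UMPS, PPAT, GART and ODC1 are lowest in IM 6h and IM 18h, and RRM2 is lowest in JTE 6h and highest in JTE 18h.

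A gene was called where edgeR's quasi-likelihood test gave a Benjamini-Hochberg adjusted p under 0.05 over all genes of the fraction and the log2 fold change exceeded 0.6 in size. In mRNA against CTRL, 0 of 9 genes were called at IM 1h (0.0166% of all genes called), 2 at IM 6h, both lower (4.12% of all genes called lower), and 5 at IM 18h, all lower (13.2% of all genes called lower). With JTE-607, 0 were called at 1 h (0.851% of all genes), 1 at 6 h, lower (6.47% of all genes called lower), and 0 at 18 h (5.39%). With KCl, 0 were called at 1 h (5.45%) and 0 at 3 h (11.9%). In nuclear RNA, 5 were called at IM 18h, all lower (15.4% of all genes called lower), and 0 at IM 1h (0.0456%), JTE 1h (8.52%) and KCl 1h (23.8%). DESeq2 also called 0 in each of these groups with 0. At an unadjusted edgeR p under 0.05 the counts in those groups were 0, except 3 at JTE 18h and 2 at KCl 3h. The median log2 fold change of the 9 genes at IM 18h was -0.70 in mRNA, where the median of all genes was 0.04, and -0.74 in nuclear RNA, where that of all genes was 0.00. The 3 libraries of a group lay entirely below CTRL for 4 of the 9 genes at IM 6h (14.8% of all genes), 6 at IM 18h (26.1%), 1 at JTE 6h (14.3%), 2 at JTE 18h (16.5%) and 1 at KCl 3h (15.6%), and for 7 at IM 18h in nuclear RNA (27.1%). They lay entirely above it for 3 genes at JTE 18h (15%) and 1 at KCl 3h (14.5%). The shares at JTE 6h and KCl 3h are near or under those of all genes. These are bulk samples, in which fewer cells of a kind and less RNA per cell cannot be told apart.

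**Figure D2:**
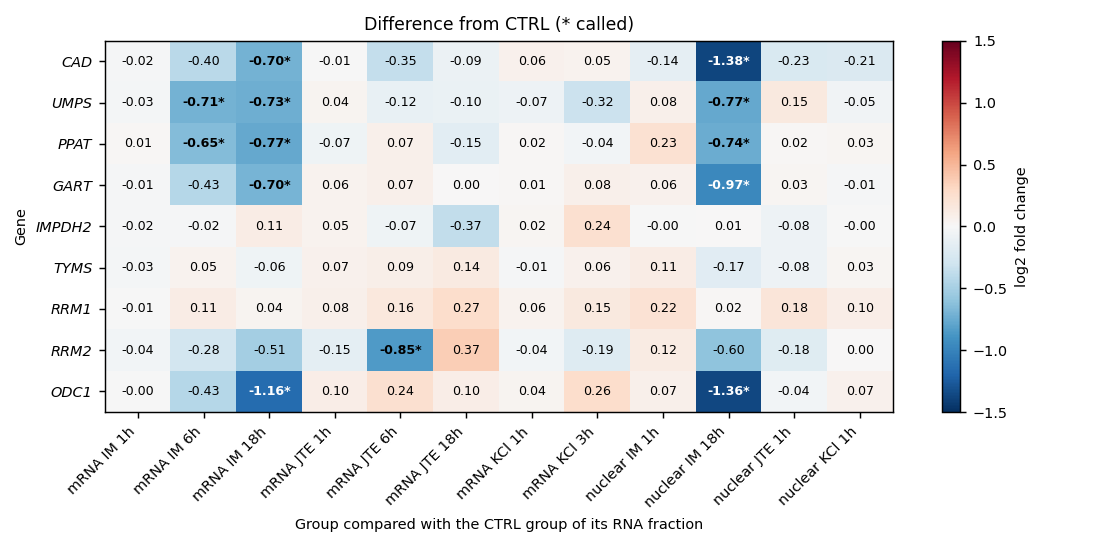
Log2 fold change of each gene (rows) in each treated group (columns) against the CTRL group of the same RNA fraction, by colour and as a number. An asterisk marks a called difference. All calls lie in the IM 6h and IM 18h columns except RRM2 at JTE 6h.

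The pyrimidine genes were lower with imatinib. UMPS measured 52.5, 42.6 and 54.7 CPM in CTRL, 45.2, 52.7 and 49.2 at IM 1h, 31.7, 29.4 and 30.3 at IM 6h, and 27.4, 31.7 and 31.5 at IM 18h. All 6 libraries of the later times lay under the lowest CTRL library. UMPS fell by 0.71 on the log2 scale at 6 h (SE 0.13, edgeR adjusted p 0.000573) and by 0.73 at 18 h (SE 0.13, edgeR adjusted p 0.000103), and the difference between the times, -0.014 (95% interval -0.28 to 0.26), was not called. CAD varied more between replicates, with 247, 204 and 149 CPM in CTRL, 153, 184 and 116 at IM 6h, and 97.8, 139 and 132 at IM 18h. Only the IM 18h libraries lay below every CTRL library. In IM 1h, IM 6h, JTE 1h, JTE 6h, KCl 1h and KCl 3h, CAD was highest in replicate 2 and lowest in replicate 3. The reported test does not use the replicate numbers, so it counts that shared order as spread. CAD was called at 18 h (log2 fold change -0.70, SE 0.25, edgeR adjusted p 0.0273), a call lost without CTRL replicate 1 (-0.53), CTRL replicate 2 (-0.72) or IM 18h replicate 1 (-0.57). At 6 h it measured -0.40 (edgeR adjusted p 0.299).

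CAD and ODC1 had, in nuclear RNA at IM 18h, the lowest log2 fold changes of the 9 genes, within their SE of each other. The CAD libraries held 425, 563 and 564 CPM in CTRL and 155, 229 and 211 at IM 18h, without overlap, and the log2 fold change was -1.38 (SE 0.17, edgeR adjusted p 5.15e-06). UMPS measured 52.2, 49.2 and 52.1 CPM in CTRL and 28.6, 31.4 and 30.2 at IM 18h, also without overlap (log2 fold change -0.77, SE 0.12, edgeR adjusted p 2.38e-05). JTE-607 and KCl left both genes without a call in either fraction. CAD had wide 95% intervals, from -0.874 to 0.165 at JTE 6h and from -0.471 to 0.565 at KCl 3h, so that a change of the size seen with imatinib could not be told from none at JTE 6h. UMPS measured 38.6, 44.5 and 37.1 CPM at KCl 3h, overlapping CTRL.

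PPAT and GART of the purine route were called lower with imatinib and IMPDH2 was not called. PPAT, the committing enzyme, measured 129, 128 and 121 CPM in CTRL, 86.9, 68.3 and 84.8 at IM 6h, and 69.8, 72.5 and 79.8 at IM 18h. Neither imatinib time overlapped CTRL. The log2 fold change was -0.65 at 6 h (SE 0.13, edgeR adjusted p 0.0011), a call lost without IM 6h replicate 2 (-0.59), and -0.77 at 18 h (SE 0.13, edgeR adjusted p 4.83e-05). GART measured 545, 617 and 444 CPM in CTRL, 461, 387 and 343 at IM 6h, and 302, 320.2 and 366 at IM 18h. Its 6 h libraries overlapped CTRL and its 18 h libraries did not. At 6 h the GART difference of -0.43 passed the adjusted p (0.0405, edgeR) but not the fold threshold, and at 18 h it was -0.70 (SE 0.14, edgeR adjusted p 0.000389).

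IMPDH2 stood apart from PPAT and GART. It measured 291, 282 and 257 CPM in CTRL, 270.1, 282 and 267 at IM 6h, and 288, 298 and 309 at IM 18h, overlapping CTRL at both times. The log2 fold changes were -0.019 (95% interval -0.19 to 0.15) and 0.11 (95% interval -0.062 to 0.28), intervals that do not reach the values of PPAT or GART at 18 h. With JTE-607 for 18 h it measured 206, 223 and 213 CPM, below every CTRL library. That difference of -0.37 (SE 0.08, edgeR adjusted p 0.00572) was under the fold threshold and was not called. At KCl 3h the 3 libraries (321, 359 and 298 CPM) lay above CTRL, with a log2 fold change of 0.24 (SE 0.08, edgeR adjusted p 0.0525). RRM2 was the other gene whose KCl 3h libraries lay apart from CTRL, lower, also without a call.

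In the nuclear libraries at IM 18h PPAT and GART were again lower and IMPDH2 was not. GART measured 603, 596 and 567 CPM in CTRL and 286, 333 and 285 at IM 18h (log2 fold change -0.97, SE 0.09, edgeR adjusted p 2.96e-08). PPAT measured 109, 91.4 and 83.0 CPM in CTRL and 59.8, 59.6 and 49.4 at IM 18h (log2 fold change -0.74, SE 0.15, edgeR adjusted p 0.000423). Both groups of libraries were apart for both genes, and the PPAT call was lost without nuclear CTRL replicate 1 (-0.59). IMPDH2 measured 299.6, 348 and 315 CPM in CTRL and 317, 343 and 307 at IM 18h, overlapping, with a log2 fold change of 0.0062 (95% interval -0.18 to 0.19).

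**Figure D3:**
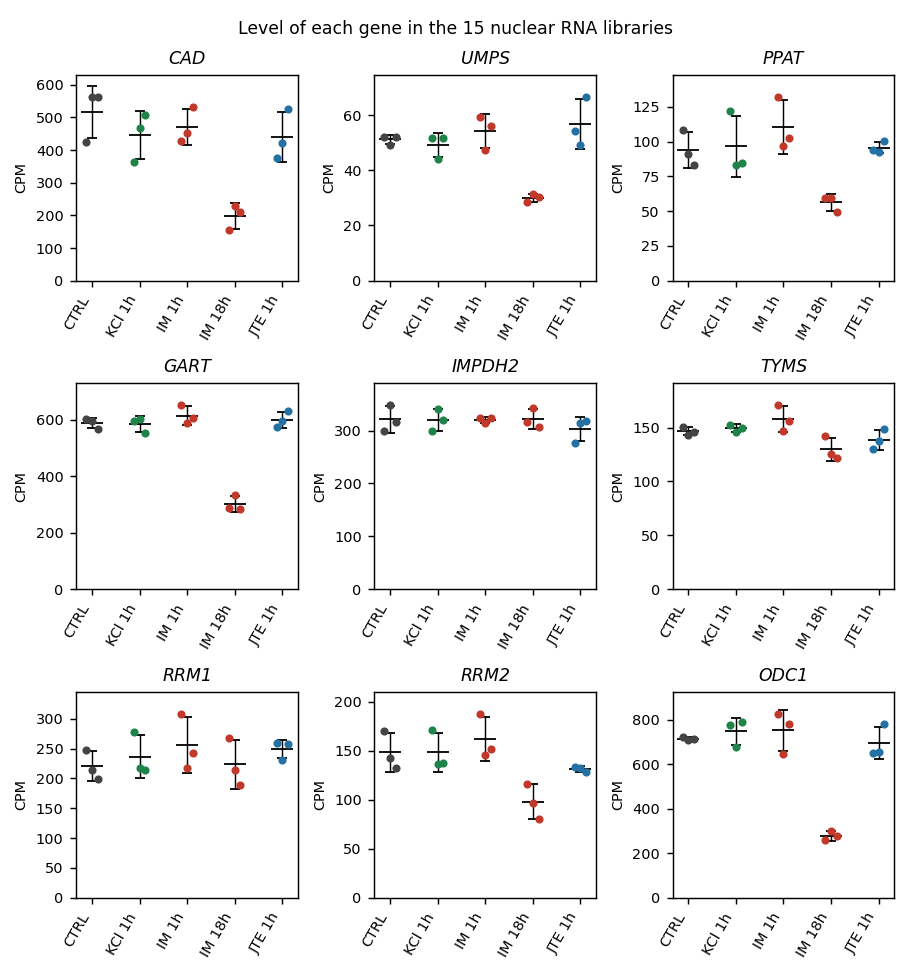
Level in CPM (y axis, from 0) of each of the 9 genes in the 15 nuclear RNA libraries, by group (x axis), drawn as in the plot of mRNA levels. CAD, UMPS, PPAT, GART, TYMS, RRM2 and ODC1 are lower in all 3 IM 18h libraries than in any CTRL library.

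The subunits of ribonucleotide reductase behaved differently from each other. RRM2, the small subunit, measured 198, 185 and 196 CPM in CTRL, 171, 187 and 165 at JTE 1h, 113, 134 and 74.7 at JTE 6h, and 225, 284 and 238 at JTE 18h. The 6 h libraries all lay below CTRL and the 18 h libraries all above it. RRM2 fell by 0.85 on the log2 scale at JTE 6h (SE 0.15, edgeR adjusted p 0.000249), a call kept in 6 of 6 fits that left out 1 library. At JTE 18h its log2 fold change of 0.37 was not called (SE 0.15, edgeR adjusted p 0.138). The direct comparison of JTE 18h with JTE 6h gave 1.22 (SE 0.15, 95% interval 0.90 to 1.53, edgeR adjusted p 8.22e-06), also called in 6 of 6 such fits. RRM2 was the only one of the 9 genes called in that comparison, in which 7.76% of all genes were called higher and 18.0% had every JTE 18h library above every JTE 6h library. The JTE 18h libraries of PPAT and IMPDH2 lay below those of JTE 6h (20.2% of all genes), without a call.

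With imatinib RRM2 measured 155, 161 and 161 CPM at 6 h and 144, 154 and 109 at 18 h, below every CTRL library at both times. The log2 fold changes were -0.28 (edgeR adjusted p 0.221) and -0.51 (SE 0.15, edgeR adjusted p 0.00874), and the latter passed the adjusted p but not the fold threshold, which it did pass without IM 18h replicate 2 (-0.63). In nuclear RNA it measured 170.3, 143 and 132 CPM in CTRL and 116, 97.2 and 80.4 at IM 18h, without overlap. The log2 fold change there was -0.599 (SE 0.135, edgeR adjusted p 0.0011), just under the fold threshold. A fit blocked on replicate, whose numbers pair these libraries, called RRM2 (-0.603 on the log2 scale, edgeR adjusted p 3.06e-08). It was also called without nuclear CTRL replicate 3 (-0.62) or IM 18h replicate 1 (-0.74). RRM1, the large subunit, measured 305, 326 and 280.4 CPM in CTRL and 335, 298 and 304 at IM 18h in mRNA, overlapping, with a log2 fold change of 0.040 (95% interval -0.14 to 0.22). It measured 360.1, 366 and 368 CPM at JTE 18h, above every CTRL library, with a log2 fold change of 0.27 (SE 0.09) that was not called (edgeR adjusted p 0.0628).

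The per-length ratio of RRM2 to RRM1 moved with these values. It was 0.502 ± 0.0514 (SD, n = 3) in mRNA CTRL, 0.249 ± 0.0753 at JTE 6h, 0.536 ± 0.0641 at JTE 18h and 0.341 ± 0.0615 at IM 18h. The CTRL libraries did not overlap those of JTE 6h or IM 18h. In nuclear RNA the ratio was 0.528 ± 0.00973 in CTRL and 0.344 ± 0.0117 at IM 18h. TYMS, the thymidylate enzyme, measured 176, 174 and 162 CPM in CTRL, 179, 179 and 171 at IM 6h, and 171, 169 and 149.8 at IM 18h, overlapping CTRL. Its log2 fold changes were 0.047 (95% interval -0.12 to 0.21) and -0.063 (95% interval -0.23 to 0.10). In nuclear RNA TYMS measured 151, 143 and 146 CPM in CTRL and 142, 126 and 122 at IM 18h, without overlap (log2 fold change -0.17). None of its comparisons with CTRL was called.

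ODC1, the putrescine enzyme, gave the largest fall of the 9 genes in mRNA. It measured 898, 713 and 728 CPM in CTRL, 686, 922 and 727 at IM 1h, 611, 693 and 435 at IM 6h, and 331, 361 and 358 at IM 18h. The libraries of 6 h and 18 h lay below every CTRL library, and those of 18 h also lay below every 6 h library. The log2 fold change was -0.43 at 6 h (SE 0.16, edgeR adjusted p 0.0782), called only without IM 6h replicate 2 (-0.61), and -1.16 at 18 h (SE 0.17, edgeR adjusted p 7.37e-06). In order of mRNA level, IM 18h was the lowest group (350 ± 16.7 CPM, SD, n = 3) and IM 6h the next (580 ± 132), and among the other 7 groups no neighbours in the order were apart.

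The step from 6 to 18 h of imatinib was called for ODC1 (log2 fold change -0.73, 95% interval -1.07 to -0.39, edgeR adjusted p 0.00913), where 1.93% of all genes were called lower and 14.7% had every IM 18h library below every IM 6h library. TYMS and RRM2 libraries lay apart in the same direction and those of IMPDH2 in the other (15% of all genes), without a call. Leaving out IM 6h replicate 1 (-0.70) or replicate 2 (-0.58), or the first IM 18h library (-0.69), ended the call. In nuclear RNA ODC1 measured 721, 709 and 714 CPM in CTRL and 258, 300.4 and 277 at IM 18h, without overlap (log2 fold change -1.36, SE 0.10, edgeR adjusted p 5.00e-09). At KCl 3h the mRNA libraries held 972, 1096 and 739 CPM and overlapped CTRL, and at JTE 6h they held 939, 1024 and 801 CPM, also overlapping.

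**Figure D4:**
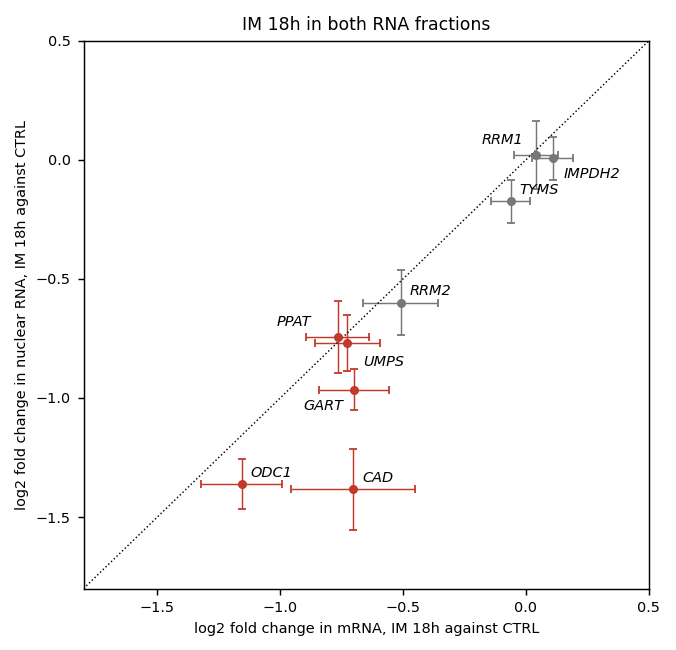
Log2 fold change at IM 18h against CTRL in mRNA (x axis) and in nuclear RNA (y axis) for the 9 genes, with bars of 1 SE. Red points were called in both fractions and grey points in neither, and the dotted line marks equal values. CAD lies farthest from the line, at -0.70 in mRNA and -1.38 in nuclear RNA.

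Whether the nuclear and the mRNA response differed was tested as an interaction. For CAD at IM 18h the nuclear response was lower than the mRNA response by 0.63 (log2 difference -0.63, SE 0.27, 95% interval -1.20 to -0.05, edgeR adjusted p 0.961), not called. Of the 9 genes, 0 were called for IM 18h (0.0901% of all genes), IM 1h (0.0%), JTE 1h (0.0605%) or KCl 1h (0.668%), and DESeq2 called 0 as well. At an unadjusted edgeR p under 0.05 there was 1 for IM 18h, CAD, and 0 for the others. For KCl 1h the 9 values ran from -0.38 to -0.06 and the median over all genes was -0.07, so the shared sign is read against that median.

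Imatinib and JTE-607 were compared directly at matched times. These compounds share CTRL libraries in the values above, but the direct comparison does not use them. At 6 h, 2 of the 9 genes were called, both lower with imatinib (10.2% of all genes called lower). PPAT was lower with imatinib (log2 difference -0.73, SE 0.13, edgeR adjusted p 0.00012), and so was ODC1 (-0.67, SE 0.16, edgeR adjusted p 0.00282), a call lost without IM 6h replicate 3 (-0.50) or JTE 6h replicate 2 (-0.59). The count was 4 without IM 6h replicate 1 or JTE 6h replicate 1, and 1 without IM 6h replicate 3. UMPS, at -0.598, lay at the fold threshold (edgeR adjusted p 0.00102). It was called by DESeq2 (-0.61), with RLE normalization (-0.61) and with thinned counts (-0.62). RRM2 was higher with imatinib by 0.57 (SE 0.15, edgeR adjusted p 0.00534), under the fold threshold. The libraries lay apart for 4 genes with imatinib lower (20.3% of all genes) and for RRM2 with imatinib higher (21.6%).

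At 18 h, 5 genes were called, all lower with imatinib (13.6% of all genes called lower). They were ODC1 (log2 difference -1.25, SE 0.17, edgeR adjusted p 2.90e-06), RRM2 (-0.88, SE 0.15, edgeR adjusted p 6.83e-05), GART (-0.70, SE 0.14, edgeR adjusted p 0.000369), UMPS (-0.63, SE 0.13, edgeR adjusted p 0.000457) and PPAT (-0.61, SE 0.13, edgeR adjusted p 0.000531). UMPS (-0.57) and PPAT (-0.57) were not called without IM 18h replicate 1, and the count was then 3. CAD measured -0.61 (SE 0.25, edgeR adjusted p 0.0533) and was not called in the reported fit. It was called by DESeq2 (-0.64), with RLE normalization (-0.63), with thinned counts (-0.64) and with no low-count filter (-0.68). The replicate block (-0.61) and a fit of only the 2 groups (-0.65) also called CAD, while the 6 fits without 1 library did not. IMPDH2 measured 0.48 (SE 0.08, edgeR adjusted p 6.62e-05), under the fold threshold. The libraries of the 2 treatments were apart in all 9 genes, 8 lower with imatinib (29.4% of all genes) and IMPDH2 higher (31.9% of all genes). Between KCl 3h and KCl 1h, 0 of the 9 genes were called by edgeR (3.29% of all genes) or DESeq2, with 1, IMPDH2, at an unadjusted edgeR p under 0.05. Its libraries lay apart, higher at 3 h, as they did for 8.16% of all genes.

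The neighbouring enzymes were taken from a list of 53 nucleotide and polyamine genes, of which 52 were tested in mRNA. At IM 18h, 3 were higher (17.2% of all genes called higher) and 19 lower (13.2% of all genes called lower), with a median log2 fold change of -0.39. By route, 4 of 5 de novo pyrimidine genes, 6 of 13 de novo purine genes, 3 of 5 one-carbon genes, 4 of 11 polyamine genes, 2 of 10 salvage genes and 0 of 8 deoxynucleotide genes were lower. Those counts include the 5 genes already described. At IM 6h, 2 were higher (5.82% of all genes) and 6 lower (4.12%), and at IM 1h 0 of 52 were called (0.0166%). Of the 2 higher at IM 6h, PAOX (log2 fold change 0.78) lost its call in 5 of 6 fits without 1 library. That call was also lost with no low-count filter (0.74) and with only the 2 groups fitted (0.77). In nuclear RNA at IM 18h, 3 of 53 were higher (17.2% of all genes) and 22 lower (15.4%). At JTE 1h in nuclear RNA, 2 were lower (1.51% of all genes), SAT2 and PAOX, and at KCl 1h ADSS1 was higher (15.3% of all genes) and PAOX lower (8.5%). Among these, ADSS1 was not called without nuclear CTRL replicate 1 (0.52), KCl 1h replicate 2 (0.52) or replicate 3 (0.59), PAOX at KCl 1h was not called without CTRL replicate 3 (-0.56), and SAT2 was lost in 3 fits without 1 library. PAOX at JTE 1h (log2 fold change -0.604) lay at the fold threshold. That call was lost in 5 fits without 1 library, with the replicate block (-0.5997), with RLE normalization (-0.595), with DESeq2 (-0.593) and with only the 2 groups fitted (-0.58).

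**Figure D5:**
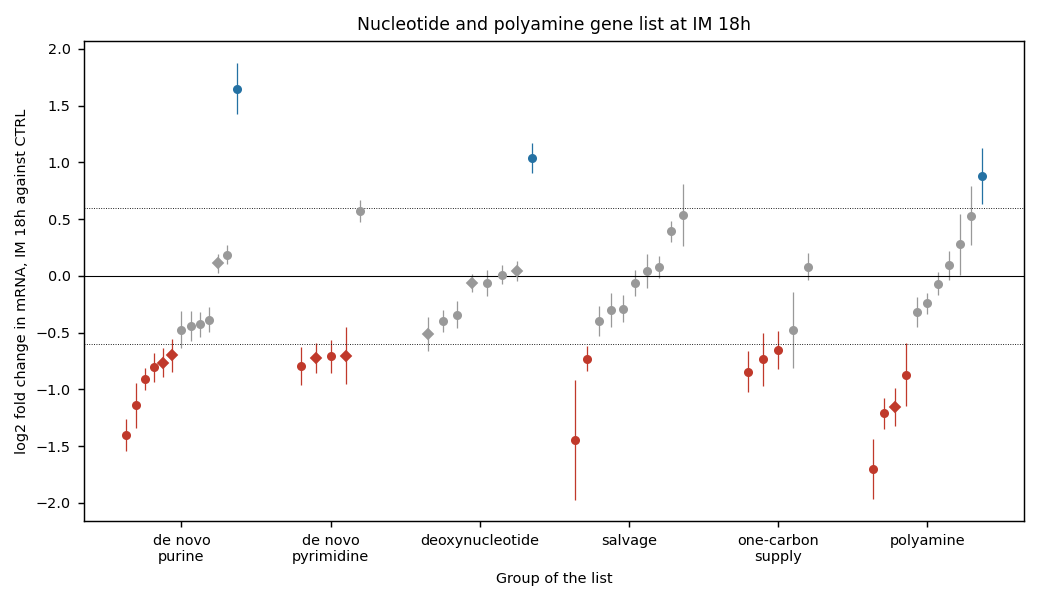
Log2 fold change in mRNA at IM 18h against CTRL (y axis) of the 52 tested genes of the list, by route (x axis), with bars of 1 SE. Diamonds are the 9 genes described and circles the others, red points were called lower, blue points called higher and grey points not called, and dotted lines mark the fold threshold. The de novo pyrimidine group has 4 of 5 genes in red and the deoxynucleotide group has none.

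In the polyamine route genes other than ODC1 also moved at IM 18h. SRM, the spermidine synthase, measured 229, 169.9 and 167 CPM in CTRL and 45.7, 64.4 and 63.5 at IM 18h, without overlap (edgeR adjusted p 2.53e-05, log2 fold change -1.70 with SE 0.27). AMD1, which supplies the aminopropyl donor, measured 244, 190.2 and 234 CPM in CTRL, 128, 107 and 121 at IM 6h, and 76.8, 106 and 106 at IM 18h. It fell by 0.91 at 6 h (edgeR adjusted p 6.13e-05) and by 1.21 at 18 h (edgeR adjusted p 2.60e-07) on the log2 scale. SAT1, which acetylates polyamines for export and breakdown, rose from 20.4, 27.7 and 36.3 CPM in CTRL to 54.2, 49.3 and 51.6 at IM 18h (log2 fold change 0.88, SE 0.24, edgeR adjusted p 0.00556). SMOX, an oxidase that also breaks down a polyamine, went the other way. It was called lower in mRNA at IM 18h and was not called in nuclear RNA. OAZ1, the antizyme that binds ODC1 protein, measured -0.068 on the log2 scale (edgeR adjusted p 0.608). The per-length ratio of SAT1 to ODC1 was 0.0441 ± 0.0162 (SD, n = 3) in CTRL and 0.176 ± 0.0167 at IM 18h.

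At KCl 3h, 2 genes of the same route were called higher, without a call for ODC1. At KCl 3h, AMD1 rose to 351, 367 and 328 CPM, a log2 fold change of 0.65 (SE 0.13, edgeR adjusted p 0.0011), a call lost without CTRL replicate 2 (0.54). SAT1 rose to 60.1, 47.0 and 69.6 CPM, a log2 fold change of 1.07 (SE 0.24, edgeR adjusted p 0.00319). No other gene of the list was called at KCl 3h. These 2 of 52 are near the share of all genes called higher (4.55%), and 0 of 52 were called at KCl 1h (5.45% of all genes).

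In the purine route IMPDH1, the second isozyme of IMP dehydrogenase, differed from IMPDH2. It measured 93.1, 78.4 and 101.6 CPM in CTRL, 50.7, 56.7 and 48.8 at IM 6h, and 30.9, 34.5 and 38.0 at IM 18h, without overlap at either time. The log2 fold changes were -0.81 (SE 0.14, edgeR adjusted p 0.000371) and -1.40 (SE 0.14, edgeR adjusted p 9.22e-08). The per-length ratio of IMPDH1 to IMPDH2 was 0.251 ± 0.0447 (SD, n = 3) in CTRL and 0.0874 ± 0.00591 at IM 18h. PAICS, the head-to-head neighbour of PPAT and an enzyme of the same route, fell by 0.81 at IM 18h (SE 0.13, edgeR adjusted p 1.96e-05) and measured -0.28 at IM 6h (edgeR adjusted p 0.131). ADSS1, the muscle-type adenylosuccinate synthase, rose at IM 18h from 2.81, 2.46 and 3.85 to 10.2, 10.1 and 8.36 CPM, without overlap (edgeR adjusted p 4.55e-06, log2 fold change 1.65 with SE 0.23).

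Among deoxynucleotide genes RRM2B, the alternative small subunit of the reductase, measured -0.062 on the log2 scale at IM 18h (edgeR adjusted p 0.699). With JTE-607, 4 of 52 genes were lower at 6 h (6.47% of all genes called lower) and 0 higher. They were PAOX, a polyamine oxidase (log2 fold change -1.53, SE 0.30), RRM2, CTPS1, which makes CTP (-0.70, SE 0.17), and UCK1, a uridine kinase (-0.69, SE 0.15). CTPS1 was not called without JTE 6h replicate 3 (-0.55). At JTE 18h, 2 were lower (2.09% of all genes called lower), APRT, not called if CTRL replicate 1 (-0.56) or the third JTE 18h library (-0.58) was left out, and MTHFD1L, whose call was lost without any 1 of 4 libraries (-0.52 to -0.62), and 0 of 52 were called at JTE 1h (0.851% of all genes).

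Likeness was measured as the root mean square difference of the 8 mRNA log2 fold changes against CTRL, over 8711 genes with a mean of at least 10 CPM. Between the 9 genes the closest pairs were TYMS with RRM1 (0.0781), PPAT with GART (0.117) and UMPS with PPAT (0.133). The most alike other genes were COCH and NSMF for CAD, CIPC and POLR3E for UMPS, ZNF263 and LARP4B for PPAT, and CNDP2 and SGPL1 for GART. They were POLD1 and PICALM for IMPDH2, TMEM50A and CALM3 for TYMS, CHP1 and DHX38 for RRM1, and NME1 and JPT1 for ODC1. RRM2 had the most distant nearest neighbours, ADGRE5 (0.124) and SNX17 (0.132). All 8 comparisons share the CTRL libraries, so these distances are a description.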

How the data were processed

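Poly(A) mRNA and nuclear RNA of K562 cells were sequenced in 42 libraries, grouped by the sample labels. The authors trimmed adapters, removed duplicates, kept unique STAR alignments to hg38 and counted with featureCounts, without a strand option. What they deposited is a table of whole-number read-pair counts for each gene. The annotation release is not given in the sources used here. Positions are on hg38, with gene models from GENCODE 44.

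The quasi-likelihood test of edgeR 4.0.16 (R 4.3.3), with TMM scaling, robust dispersions and the filterByExpr filter, was run once for each fraction, over 18095 mRNA and 21929 nuclear genes. The nuclear and mRNA responses were compared by an interaction term in 12 libraries. CPM values use TMM-scaled totals. The code was tested on simulated data. Replicates differed by more than sampling noise (chi-square per gene from 2.37 to 62.5). Intervals are at 95%.

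All 9 genes were named in every comparison. From the 53-gene list, called genes were named, at most 4 by size in each comparison, beside PAICS, AMD1, SRM, SAT1, OAZ1, IMPDH1 and RRM2B. Of these, 1 gene is not reported here. The genes, lists and tests were chosen with earlier results of these data known. The alternatives were DESeq2 1.42.0, RLE normalization, no low-count filter, a replicate block, only the 2 groups, no fold threshold, thinned counts and leaving out each library.

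The titles give the replicate numbers. Deviations from group means over genes above 10 CPM were correlated between libraries of the same number. Every correlation with CTRL exceeded 0.1 in nuclear RNA (0.235 to 0.891), so the numbers pair those libraries, as they do for JTE 18h with JTE 6h, KCl 3h with KCl 1h and IM 6h with JTE 6h in mRNA. With the mRNA CTRL libraries the correlations ran from -0.368 to 0.0784 for numbers 1 and 2 and from 0.0553 to 0.877 for number 3. The study's list of mapped reads gives the totals of mRNA CTRL libraries 1 and 2 the other way round from the column names of the count table, so these numbers may be exchanged in 1 of them. The column names were followed, and the reported tests do not use the numbers. Block fits against mRNA CTRL enter only the counts over all alternatives and are not read one by one.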

Additional observations from a re-analysis of the deposited data

Results flagged for a closer look

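A pair of genes was picked out because the effect of 1 compound differed between times by a direct test. ODC1 was lower at IM 18h than at IM 6h (log2 difference -0.73, edgeR adjusted p 0.00913, n = 3 libraries a group), lower in 3 of 3 libraries, and not called when IM 6h replicate 1 (-0.70) or replicate 2 (-0.58), or the first IM 18h library (-0.69), was left out. RRM2 was higher at JTE 18h than at JTE 6h (log2 difference 1.22, edgeR adjusted p 8.22e-06), higher in 3 of 3 libraries, and was called in 6 of 6 fits that left out 1 library. The JTE 6h libraries, at 113, 134 and 74.7 CPM, lay below every CTRL library, and the JTE 18h libraries, at 225, 284 and 238 CPM, above. Groups held 3 libraries, too few for a test of single libraries that stand apart.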

How the results depend on the processing

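The count of called genes among the 9 stayed within 1.5 times of the reported count in 139 of 143 values from alternatives that keep all libraries, and in 143 of 150 values without 1 library. The 4 exceptions were all fits with no fold threshold, with 1 gene at JTE 18h against CTRL, 2 at JTE 18h against JTE 6h, 5 at IM 6h against JTE 6h and 8 at IM 18h against JTE 18h. Without 1 library the count ran from 0 to 1 at IM 18h against IM 6h, from 1 to 4 at IM 6h against JTE 6h and from 3 to 5 at IM 18h against JTE 18h. The cause of the latter was not tested.

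The replicate block added RRM2 to the nuclear IM 18h calls (6 in place of 5). At IM 18h against JTE 18h, where the numbers did not pair the libraries, the block also gave 6, since CAD was called (-0.61, edgeR adjusted p 0.00334). In the other comparisons without mRNA CTRL libraries, the block changed no call of the 9 genes. Fits with the block in mRNA include CTRL libraries whose numbers may be exchanged. SRM at IM 6h, not called as reported (-0.71, edgeR adjusted p 0.0639), was called by DESeq2 (-0.73, adjusted p 0.0343) and with thinned counts (-0.76, edgeR adjusted p 0.0451). It was also called with no low-count filter (-0.76, edgeR adjusted p 2.93e-07) and without IM 6h replicate 2 (-1.01, edgeR adjusted p 0.0253).

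Signs turned only for values that were not called. Without 1 library IMPDH2 ran from -0.10 to 0.017 and TYMS from -0.026 to 0.068 at IM 6h, and RRM1 from -0.053 to 0.068 at IM 18h (-0.043 with no low-count filter). In nuclear RNA at IM 18h, IMPDH2 ran from -0.044 to 0.13 and RRM1 from -0.13 to 0.15. OAZ1 ran from -0.055 to 0.065 at IM 6h (-0.018 with no filter and -0.019 with thinned counts) and from -0.13 to 0.038 in nuclear RNA at IM 18h, and RRM2B from -0.039 to 0.15 and from -0.27 to 0.16. Of 189 values of the 9 genes over all comparisons, 145 were called under no setting, and 69 of these took the other sign under at least 1. Their reported values were at most 0.135 in size. The 3 libraries a group limit what a missed threshold can show, most of all for CAD.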
